A study of Mus musculus with 6 samples.

Results

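The cytochrome P450 genes described here are those outside the Cyp2a, Cyp2c and Cyp26 subfamilies. They were chosen by name alone: every gene probe of the array whose gene name starts with Cyp and a digit was taken, and those of the 3 named subfamilies were left out. This gave 93 of the 41174 probes, for 63 genes. Of these, 68 probes for 53 genes were bright enough to be tested, among 30505 tested probes for 20820 genes on the whole array.

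RNA of the esophagus of adult C57BL/6J mice was measured on 6 arrays with 60-base probes. The label wild type was given to 3 arrays and the genotype K5Cre;Pax9 loxp/loxp to the other 3. In that genotype, Cre under a keratin 5 promoter, active in basal cells of stratified epithelia, removes a floxed part of Pax9, a paired-box transcription factor. Each array carried the esophagus RNA in Cy5 and, in Cy3, a reference RNA made from cultured mouse cell lines, which was the same on all arrays. The labels name the tissue as esophageal epithelium, but the extraction protocol names esophageal tissue, and nothing beyond the words biological replicate is said of the animals, so the p-values reflect the scatter of these samples alone.

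Cytochromes P450 are haem enzymes that put an oxygen atom into their substrate, with electrons passed to them by cytochrome P450 oxidoreductase in the endoplasmic reticulum or by ferredoxin in mitochondria. Families 1 to 3 act mostly on foreign compounds, and the Cyp2j and Cyp4 genes on fatty acids and their signalling products. Other members make or break down cholesterol, bile acids, steroid hormones and vitamin D. Many are known from the liver, and some, such as Cyp2f2, Cyp2s1 and Cyp4b1, from epithelia exposed to the outside.

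A value is the log2 ratio of esophagus signal over reference signal on 1 array, and a difference is the mean of the arrays labelled knockout minus the mean of those labelled wild type, with its moderated standard error (SE). A gene was called higher or lower where the adjusted p from limma was under 0.05. Pax9, the targeted gene, had no lower value under the knockout label: its mean was 6.77 ± 0.05 there and 6.04 ± 0.30 under the wild type label (SD, n = 3 each), a difference of 0.73 (SE 0.18, limma adjusted p = 0.0715). No source used here says whether its probe lies in the deleted part. The wild type label coincided with slide 1 and the knockout label with slide 2, so slide and genotype cannot be told apart in any result that follows.

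Between 67.3% and 77.3% of the probes on an array had a Cy5 signal well above background. All 10 marker genes of esophageal epithelium were above background on all 6 arrays, and none was called changed. All 10 skeletal muscle markers had a positive difference, with a median of 1.22. 1 of them, the myosin Myh2, was called higher at 1.63 (SE 0.32, limma adjusted p = 0.0402), beside 2.83% of all tested genes. The summed Cy5 signal of the muscle markers ranged from 25913 to 292417 on the arrays labelled wild type and from 151329 to 1411510 on those labelled knockout, with replicate 2 the highest in both groups. The part of muscle RNA in the differences given here was not tested. The 10 fibroblast markers ran from 82367 to 502081 and from 227361 to 650019, with none called, and the 6 adipocyte markers from 668 to 5519 and from 2264 to 11037, with none of 4 tested called. Since these are bulk samples, more cells of a type and more RNA per cell cannot be told apart.

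The probes that carried the results are shown 5′ to 3′ because P450 genes of 1 subfamily are close copies, and a probe can only tell them apart where its bases differ. Capitals mark a run of at least 12 bases that the probe shares with a P450 probe of another name. Of the 93 probes, 6 hold such a run, as do the probes standing for 3 of the 53 tested genes. Probes were compared with probes, not with whole transcripts, so this count does not show whether a probe tells close copies apart. Coordinates were taken from the files, which use mouse build mm9. The Cyp2b10 probe lies at chr7:26702056-26702115, the Cyp2b9 probe at chr7:26995607-26995666, the Cyp3a44 probe at chr5:146585717-146585776, the Cyp2d9 probe at chr15:82286799-82286858, the Cyp2d22 probe at chr15:82204377-82204436, the Cyp21a1 probe at chr17:34940513-34940572 and the Cyp27b1 probe at chr10:126489385-126489444. Strands are plus for Cyp2b10, Cyp2b9, Cyp2d9 and Cyp27b1 and minus for the others. The Cyp2b13 probe spans chr7:26873757-26880713 on the plus strand, longer than the probe, so it crosses a splice junction.
Cyp2b10: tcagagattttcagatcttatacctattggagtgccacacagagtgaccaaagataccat
Cyp2b13: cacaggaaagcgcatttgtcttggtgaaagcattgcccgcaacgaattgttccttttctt
Cyp2b9: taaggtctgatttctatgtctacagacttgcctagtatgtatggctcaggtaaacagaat
Cyp3a44: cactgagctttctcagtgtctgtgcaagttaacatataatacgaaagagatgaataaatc
Cyp2d9: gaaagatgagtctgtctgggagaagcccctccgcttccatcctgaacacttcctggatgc
Cyp2d22: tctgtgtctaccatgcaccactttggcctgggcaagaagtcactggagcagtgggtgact
Cyp21a1: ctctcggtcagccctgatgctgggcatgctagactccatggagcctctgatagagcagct
Cyp27b1: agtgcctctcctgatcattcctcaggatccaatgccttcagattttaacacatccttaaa

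The Cyp2b10, Cyp2b13 and Cyp2b9 probes shared no run of more than 5 bases with each other, so they read different parts of these related transcripts. How well each probe binds the transcripts of neighbouring genes was not tested. The probes of Cyp2j11 (chr4:95964317-95964376, minus strand) and of its neighbour Cyp2j13 (chr4:95712305-95723288, minus strand, across a splice junction) are given as a pair, because they share a run of 18 bases and yet gave different results.
Cyp2j11: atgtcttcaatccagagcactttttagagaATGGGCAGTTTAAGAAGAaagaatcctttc
Cyp2j13: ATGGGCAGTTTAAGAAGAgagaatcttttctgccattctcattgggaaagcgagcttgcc

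Of the 53 tested P450 genes, 8 were called higher on the arrays labelled knockout and 1 was called lower, while 44 did not pass the test. The genes called higher were Cyp3a44, Cyp2b10, Cyp2b13, Cyp21a1, Cyp2j11, Cyp2d9, Cyp2d22 and Cyp4a14, and the gene called lower was Cyp27b1. Over all 20820 tested genes, 2.83% were called higher and 2.00% lower. The median difference of the 53 genes was 0.21, against 0.01 over all tested genes, and 33 of them had a positive difference. The groups did not overlap for 20 of the 53 genes, 17 higher and 3 lower, where 32.2% of all tested genes had groups that did not overlap, 17.1% higher and 15.1% lower. The filter bears on these counts: a gene was tested only where the esophagus signal cleared the background on each of the 3 arrays of one group or the other. 10 of the 53 genes were tested through the arrays labelled knockout alone, among them Cyp3a44, Cyp21a1 and Cyp4a14, and 5 through the arrays labelled wild type alone, none of which was called. Among the 38 genes above background on all 6 arrays, 4 were called higher and 1 lower, where 1.75% and 1.46% of all genes so filtered were called. The 10 genes that were not tested were Cyp11b2, Cyp2d13, Cyp2d34, Cyp2j5, Cyp3a25, Cyp4a29, Cyp4a31, Cyp4f14, Cyp4f15 and Cyp8b1.

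The calls changed with single arrays and with the normalization. Without wild type replicate 1, 2 or 3, the genes called higher numbered 1, 0 and 3, and without knockout replicate 1, 2 or 3 they numbered 0, 4 and 1. The calls of Cyp2b10, Cyp2b13 and Cyp4a14 were lost whichever of the 6 arrays was left out. The call of Cyp27b1 was lost without wild type replicate 1 or 2 or without knockout replicate 3. Without replicate 2 in both groups, the arrays with the most muscle signal, 2 genes were called higher and 0 lower. With the ratio as deposited by the authors in place of loess values, none of the 9 genes passed, although all 9 kept their direction.

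**Figure D1:**
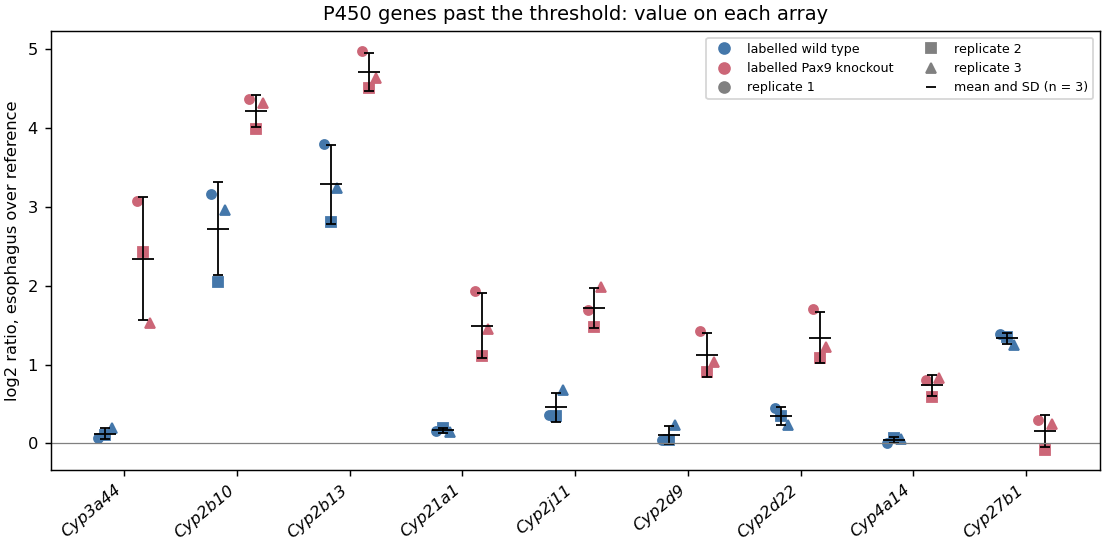
The log2 ratio of esophagus over reference (vertical axis) is plotted on each of the 6 arrays for the 9 genes past the threshold (horizontal axis), in blue for arrays labelled wild type and red for arrays labelled Pax9 knockout. Symbols give the replicate number, and bars the mean and SD of 3 arrays. The groups do not overlap for any of the 9 genes, but these were picked by a test between the same groups. Of all tested genes, 32.2% have groups that do not overlap. Cyp3a44, Cyp21a1 and Cyp4a14 were tested through the arrays labelled knockout alone. Cyp27b1 alone is lower on the arrays labelled knockout.

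Of families 1 to 3, the Cyp2j genes and Cyp2u1 were counted with the fatty acid genes and Cyp2r1 with those of vitamin D. Among the other 23 tested genes of these families, which act mostly on foreign compounds, 5 were called higher and none lower. Over all tested genes these shares were 2.83% and 2.00%. The median difference of the 23 genes was 0.40. 1 of the 5, Cyp3a44, was tested through the arrays labelled knockout alone. 2 of the 5 belong to Cyp2b, the subfamily that the receptors for phenobarbital-like compounds switch on in liver. Cyp2b10, the Cyp2b gene known best for that response, had values of 3.16, 2.05 and 2.96 on the arrays labelled wild type, against 4.36, 3.98 and 4.31 on those labelled knockout. Every array labelled knockout lay above every array labelled wild type. The difference was 1.50 (SE 0.30, limma adjusted p = 0.0433), a 2.82-fold higher ratio. Its background-subtracted Cy5 intensity was 269, 124 and 423 on the first group and 736, 820 and 1034 on the second, while its Cy3 reference intensity stayed between 13.8 and 43.0 on all 6 arrays.

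Cyp2b13, a neighbour of Cyp2b10 that in mouse liver is expressed mainly in females, had values of 3.80, 2.81 and 3.24 on the arrays labelled wild type, against 4.97, 4.51 and 4.63 on those labelled knockout. The groups did not overlap, with wild type replicate 2 the lowest, as for Cyp2b10. The difference was 1.42 (SE 0.27, limma adjusted p = 0.0377), or 2.68-fold. A second probe for Cyp2b13, above background on 3 arrays labelled wild type and on 1 labelled knockout, gave a difference of -0.28 (limma adjusted p = 0.378). The probes of this gene therefore disagreed, and with the mean over its probes Cyp2b13 did not pass the test.

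Cyp2b9, a further neighbour with the same female bias in liver, missed the threshold by little. Its values were 5.07, 4.05 and 3.83 on the arrays labelled wild type, against 5.73, 5.92 and 5.74 on those labelled knockout, with groups that did not overlap. The difference was 1.48 (SE 0.32, limma adjusted p = 0.0507). It passed the test in 5 of 19 alternative settings, among them the one with replicate numbers as a block. The Cy3 reference signal of Cyp2b9 was higher on the knockout slide by 0.60, unlike that of Cyp2b10 and Cyp2b13. A second probe of Cyp2b9 gave 0.55 (limma adjusted p = 0.297). The other tested members of this chromosome 7 cluster differed in sign. Cyp2b19, an epoxygenase of keratinocytes, had a difference of -0.66 (SE 0.33, limma adjusted p = 0.276) with overlapping groups, and Cyp2b23 one of 0.45 (SE 0.15, limma adjusted p = 0.131). Cyp2b23 was above background on no array labelled wild type and was tested only through those labelled knockout. Both genes were chosen for mention after their values were seen. The cluster from chr7:26587504 to chr7:27918629 (mm9) held 8 of the tested genes, with a median difference of 0.36 and 6 positive differences.

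The promoters of Cyp2b10, Cyp2b13 and Cyp2b9 are shown because these genes lie side by side and had ratio differences of like size. Of these genes, Cyp2b9 alone also had a higher Cy3 reference signal on the knockout slide. Each window runs from 250 bases before to 50 bases after the start of the gene, from RefSeq on assembly GRCm38.p6, plus strand, at chr7:25897408-25897707 for Cyp2b10, chr7:26061245-26061544 for Cyp2b13 and chr7:26173159-26173458 for Cyp2b9. Capitals mark matches, on either strand, to AGGTCA, a binding element of nuclear receptors, or to GCGTG, the core bound by the aryl hydrocarbon receptor with its partner. TATAAA was searched too and is not in these windows.
Cyp2b10: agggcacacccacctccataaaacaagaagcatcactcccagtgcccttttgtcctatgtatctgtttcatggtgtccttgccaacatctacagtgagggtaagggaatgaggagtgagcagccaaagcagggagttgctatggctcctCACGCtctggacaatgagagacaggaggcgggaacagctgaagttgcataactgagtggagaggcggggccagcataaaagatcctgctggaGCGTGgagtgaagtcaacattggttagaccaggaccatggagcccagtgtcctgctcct
Cyp2b13: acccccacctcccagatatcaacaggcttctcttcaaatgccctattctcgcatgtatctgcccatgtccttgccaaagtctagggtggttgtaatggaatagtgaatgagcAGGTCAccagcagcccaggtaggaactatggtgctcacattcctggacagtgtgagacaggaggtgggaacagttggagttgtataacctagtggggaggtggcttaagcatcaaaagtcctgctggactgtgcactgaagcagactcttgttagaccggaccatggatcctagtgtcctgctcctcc
Cyp2b9: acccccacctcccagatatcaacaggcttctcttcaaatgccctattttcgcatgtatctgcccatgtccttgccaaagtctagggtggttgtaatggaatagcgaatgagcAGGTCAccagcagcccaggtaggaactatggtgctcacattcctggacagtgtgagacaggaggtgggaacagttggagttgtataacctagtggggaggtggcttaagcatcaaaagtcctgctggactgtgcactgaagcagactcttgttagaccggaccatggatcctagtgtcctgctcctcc

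Aligned, the Cyp2b9 and Cyp2b13 windows matched at 298 of 300 bases, and the substitutions were T48C and C104T, with the Cyp2b9 base first and positions counted from 1 at the 5′ end of the window. Each of them matched Cyp2b10 at 223 of 311 aligned columns, 22 of which were gaps. AGGTCA stands 138 bases before the start in Cyp2b9 and Cyp2b13, and GCGTG 9 bases before the start in Cyp2b10 and, on the minus strand, 101 before it. Over all 27025 promoter windows of the table, 16% held AGGTCA, 32.5% GCGTG and 14.2% TATAAA. Of the 44 P450 genes with a window, 11 held AGGTCA, 14 GCGTG and 12 TATAAA. A match is a run of letters only and says nothing of binding.

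Cyp3a44 was called higher, but it was tested only through the arrays labelled knockout. It belongs to Cyp3a, the subfamily with the broadest range of drug substrates, and is expressed mainly in females in mouse liver. Its values were 0.07, 0.11 and 0.20 on the arrays labelled wild type, against 3.08, 2.42 and 1.53 on those labelled knockout. The groups lay far apart, although knockout replicate 3 was well below the other two. The difference was 2.22 (SE 0.36, limma adjusted p = 0.0262), and it ran from 1.18 to 3.37 over the settings tried. The Cy5 intensity was 0.37, 3.06 and 18.3 on the arrays labelled wild type, where the probe was well above background on 1 of 3, and 337, 221 and 320 on those labelled knockout. The Cy3 intensity of this probe was under 17 on 5 arrays and 246 on knockout replicate 3, although the reference RNA was the same. A second probe for Cyp3a44 was not well above background on any array.

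Cyp3a41a, a close relative, ran the same way with a difference of 0.90 (SE 0.20, limma adjusted p = 0.0526), from -0.71 ± 0.24 to 0.19 ± 0.25 (SD, n = 3). It was well above background on 1 of 3 arrays labelled wild type and was tested only through those labelled knockout. The Cy5 intensity was 9.24, 9.22 and 31.7 on the first group and 141, 104 and 128 on the second. It passed with the replicate block, and also with plain background subtraction at 2.23 and with the deposited ratio at 1.93. The latter values rest on the low signal of the arrays labelled wild type. With median centring the difference was 0.45 and did not pass. Cyp3a13, the Cyp3a gene of the gut, was far brighter in esophagus than in reference RNA on every array. Its values were 5.93, 6.21 and 5.41 on the arrays labelled wild type, against 5.67, 5.60 and 6.05 on those labelled knockout, so the groups overlapped, with a difference of -0.08 (SE 0.24, limma adjusted p = 0.881) that turned positive under several settings.

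In the Cyp2d cluster on chromosome 15, 2 of 5 tested genes were called higher, beside 2.83% of all tested genes, and the median difference was 0.84. Cyp2d9, a steroid hydroxylase expressed mainly in males in mouse liver, had values of 0.05, 0.05 and 0.24 on the arrays labelled wild type, against 1.43, 0.90 and 1.04 on those labelled knockout. The difference was 1.01 (SE 0.18, limma adjusted p = 0.0324), or 2.02-fold, and an overlapping second probe gave 0.83 (limma adjusted p = 0.0619). Its Cy3 reference intensity also differed between the slides, being 316, 321 and 319 on the slide of the wild type arrays and 590, 552 and 581 on the other. Cyp2d22, which acts on drugs like the human Cyp2d enzyme, had values of 0.46, 0.35 and 0.23 against 1.71, 1.09 and 1.22. The difference was 0.99 (SE 0.20, limma adjusted p = 0.0413), or 1.99-fold, whereas 2 further probes of the gene gave 0.13 and 0.31, neither past the threshold. Cyp2d10 was next in line at 0.84 (SE 0.18, limma adjusted p = 0.0541), with a second probe at -0.05. Neither Cyp2d call was thus shared by the other probes of its gene.

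Since several of these genes differ between the sexes in mouse liver, the sex-linked Xist and Kdm5d were looked at after the values were seen. The labels give no sex. Xist, transcribed from the inactive X chromosome of females, had values of -5.03, -5.19 and 0.43 on the arrays labelled wild type, against -5.88, -5.76 and -0.13 on those labelled knockout. Kdm5d, on the Y chromosome, had -0.09, 0.19 and -2.83 against 0.84, 0.77 and -2.05. Replicate 3 of each group stood apart from replicates 1 and 2 in both genes, with higher Xist and lower Kdm5d. This is the pattern of RNA from a female. Each group thus held 1 such array, under the same replicate number. The part of sex in the P450 differences was not tested.

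Markers of liver cells were looked at because many P450 genes are known from liver. 2 of 9 hepatocyte markers were above background on all 6 arrays, while Cps1 and Ttr were on none. Their summed Cy5 signal lay between 486 and 1701 on the arrays labelled wild type and between 932 and 2256 on those labelled knockout. None of the 5 tested ones was called.

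Other genes acting on foreign compounds did not pass the test. Cyp1a1, the classical target of the aryl hydrocarbon receptor, spread widely within the groups: its values were 1.23, 2.51 and 1.76 on the arrays labelled wild type, against 0.52, 3.00 and 4.42 on those labelled knockout. The difference was 0.81 (SE 0.91, limma adjusted p = 0.631), and without knockout replicate 3 it was -0.08. Cyp1b1, which activates polycyclic hydrocarbons, had a difference of -0.25 (SE 0.24, limma adjusted p = 0.561). Cyp2e1, the ethanol-inducible enzyme, had 0.59 (SE 0.54, limma adjusted p = 0.541).

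Cyp2f2 and Cyp2s1 are known from epithelia, the first for activating naphthalene in mouse airways and the second as a P450 of surface epithelia that oxidises retinoids. Cyp2f2 had 5.98, 6.27 and 5.12 on the arrays labelled wild type, against 6.47, 5.88 and 5.82 on those labelled knockout. The groups overlapped, with a difference of 0.26 (SE 0.33, limma adjusted p = 0.667). In the Cy5 channel alone Cyp2f2 passed as higher, at 1.42, and its Cy3 reference signal was higher on the knockout slide by 1.15. Cyp2s1 had 5.41, 5.66 and 5.43 against 6.15, 5.54 and 5.63, again overlapping, with a difference of 0.27 (SE 0.20, limma adjusted p = 0.451). Of 10 markers of club and other airway cells, Cckar, Nkx2-1 and Reg3g were above background on no array and 4 on all. Their summed Cy5 signal was 9028, 10688 and 35688 on the arrays labelled wild type, against 8876, 3995 and 3613 on those labelled knockout. Most of it came from Scgb1a1, at 8546, 9965 and 34365 against 7892, 3118 and 2661. Of the 5 tested, 3 had negative and 2 positive differences. Only the secretoglobin Scgb3a2 was called, with a ratio difference of -1.85 (SE 0.22, limma adjusted p = 0.0121), beside 2.00% of all tested genes called lower. Scgb3a1 at 0.82 (limma adjusted p = 0.143) and Dynlrb2 at 0.70 (limma adjusted p = 0.0967) ran the other way and were not called. In the Cy5 channel alone the Scgb3a2 difference was -0.34 (limma adjusted p = 0.344), with intensities of 363, 568 and 993 against 650, 435 and 583.

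**Figure D2:**
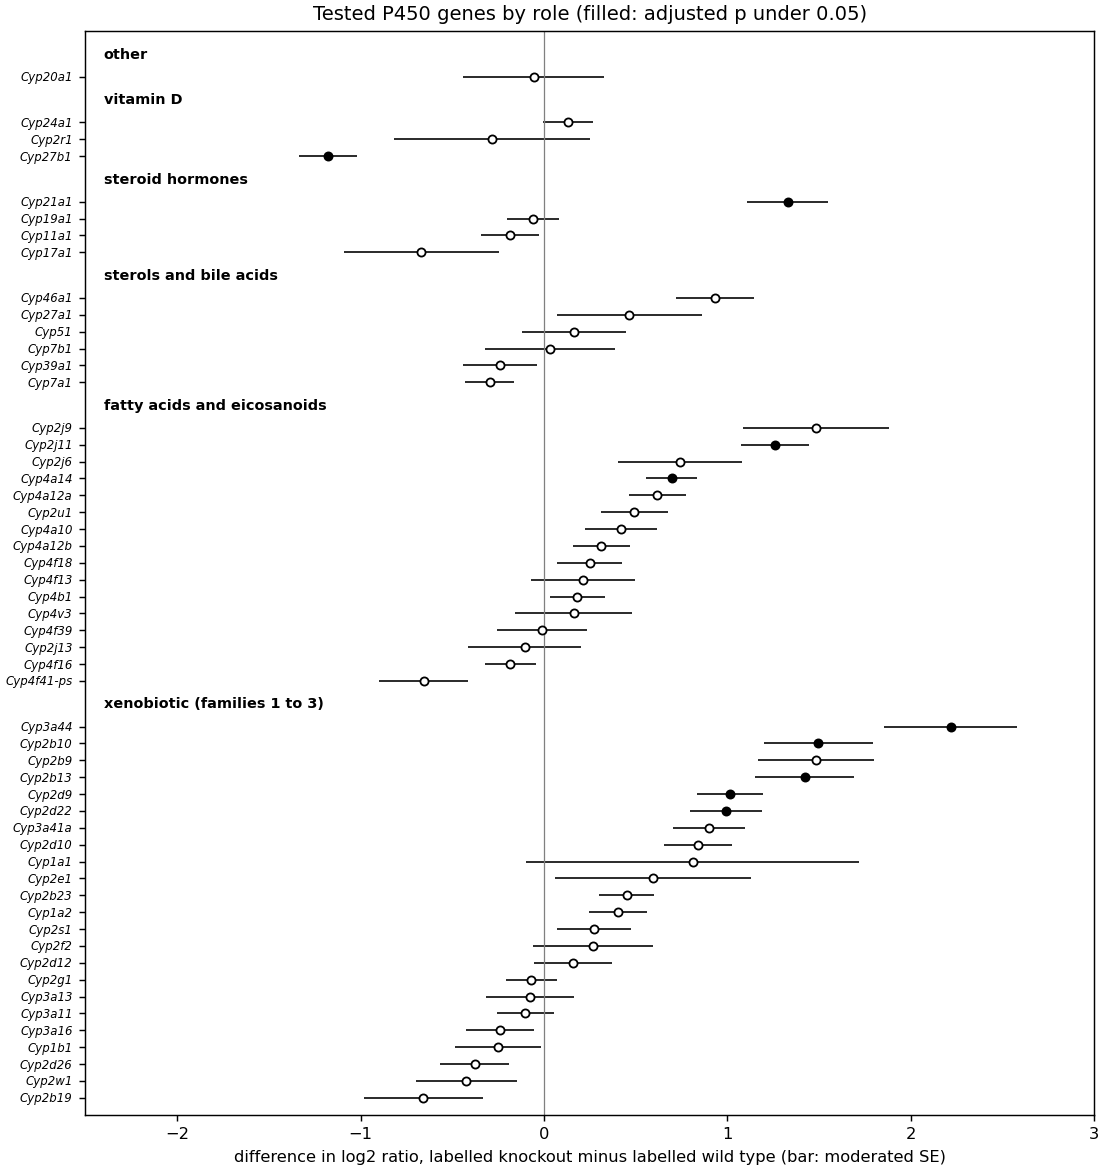
The difference in log2 ratio, arrays labelled knockout minus arrays labelled wild type (horizontal axis), is drawn for each of the 53 tested P450 genes, grouped by role, with bars for the moderated SE. Filled points passed the test: 5 of 23 genes for foreign compounds, 2 of 16 for fatty acids, 1 of 4 for steroid hormones and 1 of 3 for vitamin D, the last being the lower one. Among all tested genes 2.83% were called higher and 2.00% lower. Of the filled points, Cyp3a44, Cyp4a14 and Cyp21a1 were tested through the arrays labelled knockout alone.

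Of the 16 tested genes acting on fatty acids and eicosanoids, 2 were called higher and none lower, beside 2.83% and 2.00% of all tested genes, with a median difference of 0.28. 1 of them, Cyp4a14, was tested through the arrays labelled knockout alone. Cyp2j11, named as a pseudogene in the files and related to epoxygenases of arachidonic acid, had values of 0.36, 0.35 and 0.67 on the arrays labelled wild type, against 1.69, 1.48 and 1.98 on those labelled knockout. The groups did not overlap, and the difference was 1.26 (SE 0.19, limma adjusted p = 0.0212), or 2.39-fold. Its second probe, above background on no array labelled wild type, gave 0.50 (limma adjusted p = 0.0883). Cyp2j13, whose probe shares 18 bases with the Cyp2j11 probe, had a difference of -0.11 (SE 0.31, limma adjusted p = 0.868). Cyp2j6, an epoxygenase found in many tissues, had 0.74 (SE 0.34, limma adjusted p = 0.242). Cyp2j9, chosen after its values were seen, ran from 2.50, 1.81 and 3.31 to 3.69, 4.54 and 3.85, a difference of 1.48 (SE 0.40, limma adjusted p = 0.0828).

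Cyp4a14, which hydroxylates fatty acids at the end of the chain and is a target of PPAR alpha in liver, had values of 0.00, 0.06 and 0.06 on the arrays labelled wild type, against 0.80, 0.58 and 0.83 on those labelled knockout. The difference was 0.70 (SE 0.14, limma adjusted p = 0.0436). The gene was tested only through the arrays labelled knockout and was well above background on 1 of 3 labelled wild type. It did not pass with the replicate block, and its difference was -0.06 when arrays were centred on their median in place of loess. Its relative Cyp4a12a had 0.62 (SE 0.16, limma adjusted p = 0.0725), also -0.06 with median centring. Ppara, the receptor named above, had a difference of -0.19 (SE 0.20, limma adjusted p = 0.608).

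The Cyp4 genes known from epithelia did not pass. Cyp4f39, which hydroxylates very long fatty acids for the skin barrier lipids, had 4.79, 5.02 and 4.26 on the arrays labelled wild type, against 5.01, 4.46 and 4.56 on those labelled knockout. Its difference was -0.01 (SE 0.25, limma adjusted p = 0.982), and it turned positive under several settings, among them median centring at 0.34. Cyp4b1, which hydroxylates fatty acids and activates some toxins, had 4.89, 4.99 and 4.93 against 5.15, 5.27 and 4.93, with a difference of 0.18 (SE 0.15, limma adjusted p = 0.498). Cyp4v3, a fatty acid hydroxylase, had 0.16 (SE 0.32, limma adjusted p = 0.799).

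Several P450 genes were thus strongly enriched in esophagus over the reference, whatever the group. In 15 of 53 genes the mean over the 6 arrays was 2 or more, that is, at least 4 times the reference. Means over 6 arrays were 5.92 ± 0.46 for Cyp2f2, 5.81 ± 0.30 for Cyp3a13, 5.64 ± 0.27 for Cyp2s1, 5.06 ± 0.91 for Cyp2b9, 5.03 ± 0.15 for Cyp4b1 and 4.68 ± 0.31 for Cyp4f39 (SD). These ratios depend on what the reference RNA holds and give no order of abundance between genes.

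None of the 6 tested genes of sterols and bile acids passed the test, and their median difference was 0.10. Cyp46a1, the cholesterol hydroxylase of neurons, came nearest, with 0.64, 0.48 and 0.22 on the arrays labelled wild type, against 1.76, 1.11 and 1.27 on those labelled knockout. The groups did not overlap, and the difference of 0.93 (SE 0.21, limma adjusted p = 0.0588) passed with the replicate block, but its reference signal was also higher on the knockout slide, by 0.94. Cyp51, which removes a methyl group from lanosterol in cholesterol synthesis, had 0.17 (SE 0.28, limma adjusted p = 0.765), with 2 further probes at -0.30 and -0.34. Cyp27a1, which starts a bile acid pathway in mitochondria, had 0.46 (SE 0.40, limma adjusted p = 0.516). Cyp7b1 and Cyp39a1, which hydroxylate oxysterols, had 0.03 (limma adjusted p = 0.965) and -0.24 (limma adjusted p = 0.516).

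Of 4 tested genes of steroid hormone synthesis, 1 was called higher, beside 2.83% of all tested genes. Cyp21a1, the 21-hydroxylase needed for aldosterone and corticosterone in the adrenal gland, had values of 0.16, 0.20 and 0.14 on the arrays labelled wild type, against 1.93, 1.11 and 1.45 on those labelled knockout. The difference was 1.33 (SE 0.22, limma adjusted p = 0.0275), with Cy5 intensities of 12.3, 21.6 and 21.2 against 350, 197 and 270. It was well above background on 2 of 3 arrays labelled wild type and was tested only through those labelled knockout. The Cy3 intensity of its probe ran the same way, from 22.8, 23.9 and 26.7 to 153, 143 and 147.

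None of the other steroid genes passed the test as processed here. Cyp11a1, which makes pregnenolone from cholesterol, had a difference of -0.18 (SE 0.16, limma adjusted p = 0.522). It passed as lower, at -1.29 and -1.36, with plain background subtraction and with the deposited ratio, but its difference was 0.13 in the Cy5 channel alone. In the reported fit the remaining genes, Cyp17a1 and the aromatase Cyp19a1, also had negative differences. Of 5 markers of steroidogenic cells, Lhcgr was above background on no array. Their summed Cy5 signal was 590, 695 and 1680 on the arrays labelled wild type, against 165, 266 and 204 on those labelled knockout. 2 of 4 tested were called lower, beside 2.00% of all tested genes. They were Star, the carrier of cholesterol into mitochondria, at -2.88 (SE 0.20, limma adjusted p = 0.0029), and the corticotropin receptor Mc2r at -0.82 (SE 0.17, limma adjusted p = 0.0442). The part of such cells in these results was not tested.

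The 1 gene called lower was Cyp27b1, which makes the active hormone from 25-hydroxyvitamin D. It was 1 of 3 tested genes of vitamin D, beside 2.00% of all tested genes called lower. Its values were 1.39, 1.35 and 1.25 on the arrays labelled wild type, against 0.29, -0.08 and 0.25 on those labelled knockout, so the groups lay far apart relative to their spread. The ratio fell by 1.18 on the log2 scale (SE 0.16, limma adjusted p = 0.0172), or 2.26-fold. The Cy5 intensity was 247, 279 and 628 on the arrays labelled wild type, against 91.9, 68.1 and 108 on those labelled knockout, and the Cy3 intensity was 417, 410 and 419 against 153, 153 and 178. A second probe gave -0.58 (limma adjusted p = 0.0735) and was above background on no array labelled knockout. Cyp24a1, the vitamin D target that breaks the hormone down, had 0.13 (SE 0.14, limma adjusted p = 0.610), and the vitamin D receptor Vdr had 0.04 (SE 0.14, limma adjusted p = 0.876). Of 5 thyroid markers, looked at because glands lie beside the esophagus, Pax8 and Tshr were above background on no array, and neither of 2 tested was called; their summed Cy5 signal was 67.4 to 176 on the arrays labelled wild type and 39.9 to 79.3 on those labelled knockout. Cyp20a1, a P450 with no settled substrate, had a difference of -0.06 (SE 0.38, limma adjusted p = 0.946).

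The reference RNA was the same on all arrays, so a difference in Cy3 between the slides is a difference in signal from the same RNA. In a limma fit of Cy3 alone after loess and quantile scaling, 51.8% of all tested genes passed the threshold between the slides. The Cy3 difference was above 0.5 on the log2 scale in 7.09% of all tested genes. Among the 53 P450 genes this held for 12, or 22.6%, and among the 8 called higher for 4, namely Cyp21a1 at 0.99, Cyp2d9 at 0.79, Cyp2d22 at 0.69 and Cyp4a14 at 0.63. Cyp3a44 had a Cy3 difference of 0.42 and Cyp2j11 of 0.36. For Cyp2b10 and Cyp2b13 it was -0.03 and -0.05, so their difference was as large in the Cy5 channel alone, at 1.47 and 1.37. For Cyp27b1 the Cy3 difference was -0.73, in the direction of its ratio. The part of a slide or scan effect in the calls was not tested. In the Cy5 channel alone, which carries any slide effect in full, 20 of the 53 genes were called higher and 5 lower, against 15.6% and 15.0% of all tested genes.

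**Figure D3:**
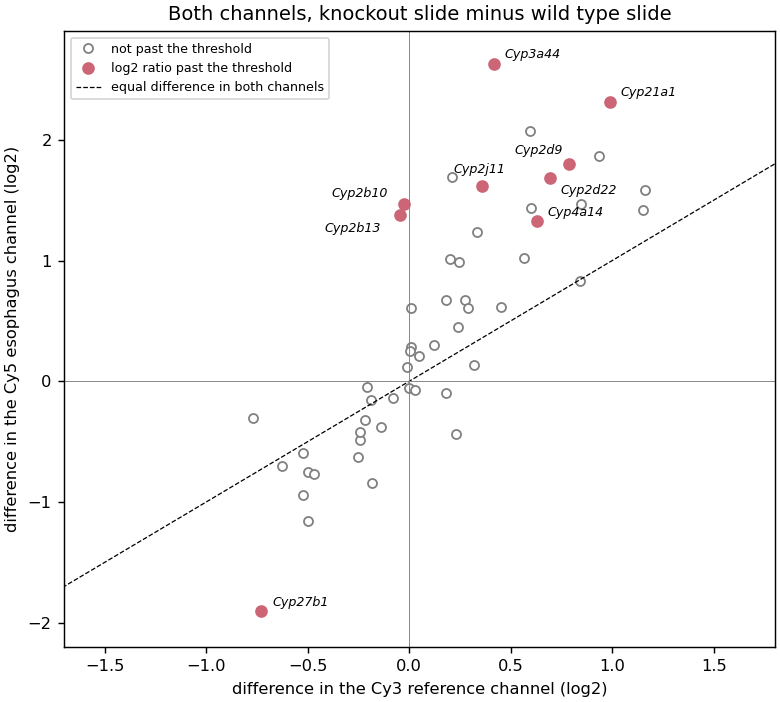
Each point is 1 of the 53 tested P450 genes, with its difference between the slides in the Cy3 reference channel on the horizontal axis and in the Cy5 esophagus channel on the vertical axis, both on the log2 scale. Red points are the 9 genes whose log2 ratio passed the test, and the dashed line marks an equal difference in both channels. Cyp2b10 and Cyp2b13 lie near 0 on the horizontal axis, whereas Cyp21a1, Cyp2d9, Cyp2d22 and Cyp4a14 were higher in both channels and Cyp27b1 was lower in both.

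The P450 genes lie in clusters of close copies, and members of a cluster share sequence, so they are not independent. In the Cyp2j cluster (chr4:95712305-96295971, mm9) 4 of 5 genes were tested, with 1 called and a median difference of 1.00. The cluster of Cyp4a and Cyp4b1 (chr4:114923306-115297586) had 5 of 7 tested, 1 called and a median of 0.42. The Cyp3a cluster (chr5:146197274-146789234) had 4 of 5 tested, 1 called and a median of 0.40, and the Cyp2d cluster (chr15:82204377-82620634) had 5 of 7 tested and 2 called. In the Cyp4f cluster (chr17:32629616-33088284) none of 4 tested genes was called and the median was -0.10. All calls in these clusters were higher, beside 2.83% higher and 2.00% lower among all tested genes. The calls in the Cyp4a and Cyp3a clusters, Cyp4a14 and Cyp3a44, were of genes tested through the arrays labelled knockout alone. Of 13 genes with several tested probes, the probes had the same sign in 8, and in none of the 5 that held a call did every probe pass.

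P450s depend on other proteins for electrons and haem. Of 14 tested genes of electron donors and haem supply, none was called higher and 1 was called lower, beside 2.83% and 2.00% of all tested genes. Their median difference was 0.03. The gene called lower was Alas1, the first enzyme of haem synthesis. Its values were 1.71, 1.60 and 1.81 on the arrays labelled wild type, against 0.95, 1.01 and 0.70 on those labelled knockout. The groups did not overlap, and the ratio fell by 0.82 on the log2 scale (SE 0.15, limma adjusted p = 0.0358), or 1.76-fold. In the Cy5 channel alone the difference was -1.65, so the Cy3 signal was lower on the knockout slide too, and the call was lost whichever of the 6 arrays was left out. Por, the oxidoreductase that feeds P450s of the endoplasmic reticulum, had a difference of -0.06 (SE 0.19, limma adjusted p = 0.881), with a sign that turned under median centring and with Cy5 alone.

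Of 17 tested regulators of P450 genes, limma called none in either direction, and 2 had an unadjusted p under 0.05, against 24.7% of all tested genes. The aryl hydrocarbon receptor Ahr had a difference of -0.15 (SE 0.23, limma adjusted p = 0.726), turning positive with median centring. Nr1i2, the xenobiotic receptor that acts on Cyp3a and Cyp2b genes, had 0.17 (SE 0.16, limma adjusted p = 0.564). It was well above background on 1 of 3 arrays labelled wild type and was tested only through those labelled knockout. Its relative Nr1i3, the other of the 18 listed regulators, was not tested. Hnf4a, a factor of liver and gut epithelium, came nearest with -0.66 (SE 0.16, limma adjusted p = 0.0622). Over both lists the median difference was -0.06, beside 0.21 for the P450 genes and 0.01 for all tested genes.

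**Figure D4:**
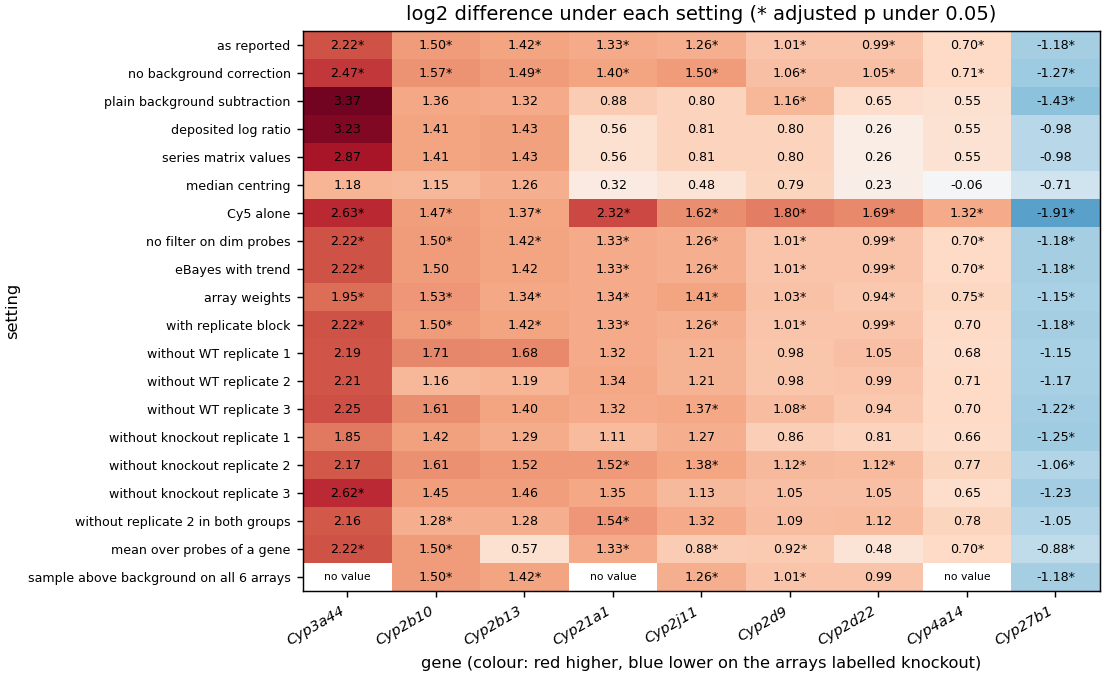
The log2 difference of the 9 called P450 genes (horizontal axis) is printed for each processing setting (vertical axis), in red where higher and blue where lower on the arrays labelled knockout, and a star marks an adjusted p under 0.05. All 9 keep their direction wherever a setting gave a value, except with median centring, where Cyp4a14 is at -0.06, and none keeps its star in every setting.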

How the data were processed

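The scanner files deposited by the authors give the linear intensity of each spot. Per the file headers, they come from array design 014868 and version 10.7.3.1 of Agilent Feature Extraction, where the submitters' processing notes have version 9.1. The log10 ratio in the same deposited files had been background-subtracted and dye-normalized by that program. The deposited series matrix holds log2 values of Cy3 over Cy5, as its correlation with the scanner ratio of the same array (-0.993 to -0.996) showed, and no source used here gives its centring. Column medians lay between -0.02 and 0.02. On each array 45018 spots were read.

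From the intensities, background was corrected with normexp (offset 50) and each array's ratios were then normalized by loess, control spots having weight 0, in limma 3.58.1 on R 4.3.3. Control spots and 55 to 164 outlier spots per array were left out, none was saturated, and spots of a probe were averaged. A gene was represented by its tested probe with the highest mean intensity. The groups were compared with lmFit and eBayes (two-sided, no covariate), with Benjamini-Hochberg adjustment over tested probes. The number of arrays limits the precision, and an exact permutation test of 3 against 3 cannot go below p = 0.1. Probe names were updated through RefSeq tables of GRCm38.p6, 26918 by accession and 5899 by name, and 8357 kept the name of the files; 44 of 63 P450 genes had a promoter window.

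Same-numbered replicates of the groups deviated from their group means together, at correlations of 0.14, 0.49 and 0.32 over probes. Pairs of unlike numbers lay between -0.47 and 0.16, with wild type 1 closer to knockout 3 (0.160) than to knockout 1, so the pairing of number 1 is unclear. All same-numbered values being above 0.1, the replicate number was tried as a block in an alternative fit. The reported differences, SEs and p-values come from the fit without that block. The labels do not say what the number stands for, and it coincides with the position on the slide. On simulated data for this comparison over 30490 probes, 31% of changes of size 1 and 74% of changes of size 2 (log2) were recovered, with 4 false calls. The simulated noise was independent between arrays, with no slide effect and no link between same-numbered replicates. These numbers therefore cannot stand for the false calls in the measured data. The named genes are the P450 genes past the threshold, the next 5 by p, 18 P450 genes named whatever their result (2 of which passed, giving 30 P450 genes in all), the partner genes past the threshold, Por and Ahr; others are values for background or were chosen after their values were seen. The members, lists and markers were chosen with earlier results of these data known.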

Additional observations from a re-analysis of the deposited data

How the results depend on the processing

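Counts are for P450 genes higher, P450 genes lower, partner genes higher, partner genes lower and all probes called, which as reported were 8, 1, 0, 1 and 1274. They were 2, 3, 0, 1 and 1347 with plain background subtraction, 1, 1, 0, 1 and 727 with the deposited log ratio, and 1, 1, 0, 1 and 714 with the matrix values. They were 0, 0, 0, 0 and 139 with median centring, which moved the median of all genes from 0.01 to 0.11, and 20, 5, 2, 5 and 8909 with Cy5 alone. They were 4, 1, 0, 0 and 699 with probes above background on all 6 arrays, 14, 1, 2, 2 and 3311 with array weights, and 11, 1, 0, 2 and 1753 without background correction. With the replicate block they were 10, 1, 0, 1 and 2254: Cyp2b9, Cyp3a41a and Cyp46a1 passed, Cyp4a14 did not, and no other named call changed. Without the filter they were 8, 1, 0, 2 and 1629. Leaving out 1 array gave 0 to 4, 0 to 1, 0 to 0, 0 to 0 and 38 to 1111. Without replicate 2 in both groups, chosen after seeing the data, they were 2, 0, 0, 0 and 396. The cause of these changes was not tested. An intensity trend or a mean over the probes of a gene kept every such count within 1.5 times, though 7 of the 9 called P450 genes remained called under each. Of the calls of all genes, 58.6% were higher as reported, 51.1% with Cy5 alone.

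Over 30 named P450 genes, 408 of 564 values under an alternative kept direction and side of the threshold, 90 lost the threshold, 29 gained it and 37 turned sign. With median centring, Cyp24a1 was at -0.11, Cyp39a1 at 0.0046, Cyp3a13 at 0.17, Cyp4a12a at -0.063, Cyp4a14 at -0.063, Cyp4f39 at 0.34, Cyp7b1 at -0.054, Por at 0.43 and Ahr at 0.11. With Cy5 alone, Cyp11a1 was at 0.13, Cyp27a1 at -0.30, Cyp4f39 at 0.83, Cyp4v3 at -0.045, Cyp7b1 at -0.15 and Por at 0.13. With the deposited ratio or the matrix, Cyp1a1 was at -0.11, Cyp1b1 at 0.018 and Cyp3a13 at 0.23. Cyp3a13 was at 0.0059 without background correction and 0.093 with plain subtraction, Cyp51 at -0.16 with the mean over probes and Ahr at 0.0027 with array weights. Without replicate 2 in both groups, Cyp3a13 was at 0.20, Cyp4f39 at 0.26 and Cyp7b1 at -0.56. Leaving out 1 array moved Cyp1a1 over -0.077 to 1.88, Cyp2f2 over -0.070 to 0.503, Cyp3a13 over -0.296 to 0.107, Cyp4f39 over -0.227 to 0.152, Cyp4v3 over -0.068 to 0.506, Cyp51 over -0.098 to 0.379, Cyp7b1 over -0.287 to 0.294, Por over -0.204 to 0.056 and Ahr over -0.297 to 0.061.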
